A study of Homo sapiens with 24 samples.

Results

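HMGA1, HMGA2, LIN28B, IGF2BP1, IGF2BP2, IGF2BP3 and PEG10 are oncofetal genes, that is, genes active in embryonic tissue, low in most adult tissue and often active again in tumours. They are 7 of the 60504 rows of the expression table and were taken by gene name. HMGA2 and PEG10 were picked on measured values, because their response to knockdown of GCDH differed between cell lines, so their changes are described here without a test. The other 5 were chosen as genes of the same let-7 axis.

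RNA was sequenced from 3 human cancer cell lines, A375 (melanoma), SK-Hep1 (labelled as liver cancer) and SKBR3 (labelled as breast cancer), 48 hours after transfection with an siRNA against GCDH (siGCDH) or a control siRNA (siControl). GCDH is the gene of glutaryl-CoA dehydrogenase, which takes part in lysine breakdown in mitochondria. A375 was measured in 2 batches, so that there were 8 groups of 3 libraries each: siControl and siGCDH in A375 batch 1, A375 batch 2, SK-Hep1 and SKBR3. No group carried a further treatment or allele according to the labels, and how many siRNAs made up each reagent is not given in the sources used here. Batch 1 was made with a kit that reads the 3' ends of transcripts and the other 18 libraries with a full-length poly(A) kit, so levels were compared between lines only within the full-length kit. Values are TPM, a share of transcripts corrected for their length, from which the sequencing depth cannot be read. The 3 libraries of a group came from triplicate wells, so p-values here measure differences between wells and the spread may be technical.

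Knockdown was visible in the targeted gene. Mean GCDH went from 20.9 to 3.72 TPM in A375 batch 2, from 9.41 to 2.76 in SK-Hep1, from 22.5 to 5.94 in the libraries labelled SKBR3 and from 4.41 to 0.917 in A375 batch 1, where the difference did not pass the test (adjusted p = 0.118). Correlations of log2 values between replicates were 0.906 to 0.925 in batch 1 and 0.968 to 0.979 in the other groups. In batch 1, 5 rows of chromosome 21 made up 17.1% (siControl) and 33.0% (siGCDH) of the TPM. These rows are labelled as long intergenic RNAs and overlap ribosomal RNA genes. They made up less than 0.1% in every full-length group. The markers did not bear out every label. SKBR3 is known for an amplified ERBB2 gene, yet ERBB2 was 25.5 ± 2.23 TPM (SD, n = 3) in the siControl libraries labelled SKBR3, below the 46.4 ± 5.12 in SK-Hep1, and the 9 breast epithelial markers summed to 62.9 to 65.8 TPM there against 6305 to 6567 in SK-Hep1. These libraries are therefore called the libraries labelled SKBR3. Of the 5 hepatocyte genes, ALB, APOA1, TTR and HNF4A were listed at 0 in every SK-Hep1 library and AFP was 0.41 to 0.92 TPM with siControl and 1.37 to 2.39 with siGCDH, and the 5 endothelial markers summed to at most 0.19 TPM there. In siControl of SK-Hep1, 8 of the 9 breast epithelial markers averaged 1 TPM or more. The liver label was thus not borne out by these markers either, and SK-Hep1 is used below as the name on the label. A375 held 3 of the 7 melanocytic markers at 1 TPM or more, with SOX10 at 457 ± 14.5 TPM in siControl of batch 2.

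Members of the let-7 microRNA family accumulate as cells differentiate and repress messenger RNAs that match their seed, the bases near the 5' end that pair with the target. LIN28B and its relative LIN28A bind let-7 precursors and block their maturation, and HMGA2, LIN28B itself and the IGF2BP genes are textbook let-7 targets. HMGA1 and HMGA2 are chromatin proteins that bind AT-rich DNA, the 3 IGF2BP proteins bind messenger RNAs and are known to stabilise many of them, and PEG10 is an imprinted gene derived from a retrotransposon that is expressed from the paternal copy.

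The sequences below show the shared seed of the family and where it meets these genes. RefSeq (GRCh38.p14) lists 9 different mature let-7 family sequences from 12 gene copies, and all 9 share bases 2 to 8, GAGGUAG, in capitals here. The 3 lines give the reference member, a member that differs outside the seed, and miR-98.
hsa-let-7a-5p: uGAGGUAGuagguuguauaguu
hsa-let-7g-5p: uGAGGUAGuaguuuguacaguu
hsa-miR-98-5p: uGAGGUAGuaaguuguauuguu
The microRNAs themselves are too short for these poly(A) messenger RNA libraries and were not measured.

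A target that pairs with the whole seed holds CTACCTC. The annotated 3' UTR of the principal transcript of each gene (GENCODE 29, hg38) was searched for CTACCTC on the transcribed strand. HMGA2, LIN28B and IGF2BP1 each held 4 matches, HMGA1, IGF2BP2 and IGF2BP3 each held 1, and PEG10 held 0 in 5161 bases. Of 19111 protein-coding genes with a 3' UTR, 8.57% held at least 1 match and 12 genes held at least 4. Long 3' UTRs hold more matches: among genes whose 3' UTR is within 20% of the same length, at least 4 matches were found in 0.106% for HMGA2 (3003 bases), 0.244% for LIN28B (4549 bases) and 0.584% for IGF2BP1 (6206 bases), and 24.5% of genes as long as PEG10 held a match. In HMGA2 1 of 7 annotated isoforms ended in the 3' UTR that holds the matches, and gene-level TPM do not tell the isoforms apart. The counts of genes with at least 4 matches include HMGA2, LIN28B and IGF2BP1 themselves. LIN28B and IGF2BP1 were chosen for the let-7 axis and HMGA2 is a textbook target, so their many matches are not an independent result. A match is a description of these letters and not a measured binding site.

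The match nearest the stop codon in HMGA2 and LIN28B, the 3 matches of IGF2BP1 that are followed by A, and the only match of HMGA1, IGF2BP2 and IGF2BP3 are printed 5' to 3' on the transcribed strand, with the 7 matching bases in capitals.
HMGA2, chr12:65963293-65963320, plus strand: ggggcgccaacgttcgatttCTACCTCa
LIN28B, chr6:105078805-105078834, plus strand: ttcctttacccggttgcaaagtCTACCTCa
IGF2BP1, chr17:49051054-49051083, plus strand: gcaatgctgtgtgcgaagtaaaCTACCTCa
IGF2BP1, chr17:49053691-49053720, plus strand: tgggaaccagcagtgctagtaaCTACCTCa
IGF2BP1, chr17:49054345-49054374, plus strand: gctacgagtataaatggattaaCTACCTCa
IGF2BP2, chr3:185644220-185644249, minus strand: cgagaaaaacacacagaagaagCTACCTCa
IGF2BP3, chr7:23311795-23311824, minus strand: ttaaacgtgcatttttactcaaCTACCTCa
HMGA1, chr6:34245822-34245851, plus strand: ccatttttcctctgttcacaaaCTACCTCt
The printed match was followed by A in all of these except HMGA1, which for IGF2BP1 follows from the choice. Most matches not printed lacked the A. These began 1256, 1668 and 2521 bases after the stop codon in HMGA2, 2471 and 4092 in LIN28B and 5568 in IGF2BP1. The unprinted match of LIN28B at 2653 bases was followed by A. The printed matches in HMGA2 and LIN28B began 21 and 44 bases after the stop codon, and those in IGF2BP1 began 1632, 4269 and 4923 bases after it.

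**Figure D1:**
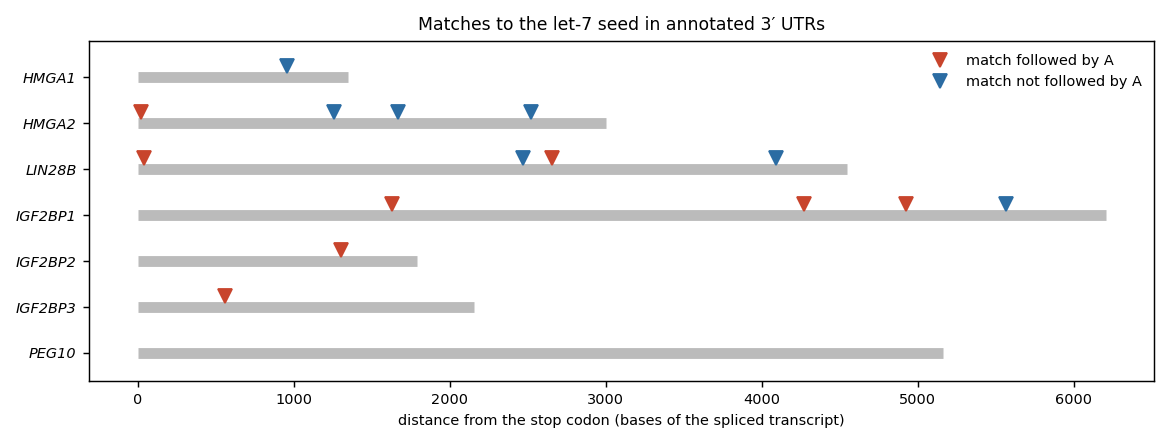
Positions of matches to the let-7 seed in the annotated 3' UTR of each of the 7 genes. The horizontal axis is the distance from the stop codon in bases, grey bars are the 3' UTRs, and triangles are matches, red where the next base is A and blue where it is not. HMGA2, LIN28B and IGF2BP1 hold 4 matches each and PEG10 holds 0.

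The genes differed in abundance between the lines before any knockdown. In siControl cells of the full-length kit, HMGA1 was the most abundant of the 7 genes in each line, at 800 ± 5.20 TPM in A375 batch 2, 1073.8 ± 56.8 in SK-Hep1 and 327 ± 9.45 in the libraries labelled SKBR3 (SD, n = 3 each). The rest of the order differed from line to line. HMGA2 and IGF2BP3 came next in A375, at 123 ± 3.94 and 105 ± 6.97 TPM, and LIN28B and PEG10 were lowest at 3.59 ± 0.308 and 1.78 ± 0.551. In SK-Hep1, PEG10 (134 ± 5.77 TPM) and HMGA2 (131 ± 9.57) came next and overlapped, followed by IGF2BP2 (61.3 ± 0.0907), IGF2BP3 (55.6 ± 3.81) and IGF2BP1 (27.4 ± 1.44), and LIN28B was listed at 0 in all 3 libraries. In the libraries labelled SKBR3, IGF2BP1 (70.8 ± 4.90 TPM) and LIN28B (47.0 ± 2.53) stood next to HMGA1, HMGA2 (40.3 ± 1.99), IGF2BP3 (35.0 ± 7.43) and IGF2BP2 (32.9 ± 0.679) followed with IGF2BP3 overlapping both of its neighbours, and PEG10 was 0.540 ± 0.462.

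Each level was then compared between lines by limma on log2(TPM + 1), with p-values adjusted over all genes. Because the siControl libraries also entered the changes for which HMGA2 and PEG10 were picked, their levels are given as values only, and so is LIN28B beside SK-Hep1, where it was listed at 0. Of the other genes, 4 of 4 differed between A375 batch 2 and SK-Hep1, 5 of 5 between A375 batch 2 and the libraries labelled SKBR3, and 4 of 4 between SK-Hep1 and the libraries labelled SKBR3. The share of all genes tested that passed in these pairs was 73.5%, 74.6% and 77.4%, so these counts do not set the genes apart. LIN28B was 13.1-fold higher in the libraries labelled SKBR3 than in A375 batch 2 (log2 difference of A375 minus SKBR3 -3.39, SE 0.09, adjusted p = 1.80e-09). IGF2BP1 was 1.96-fold higher in the libraries labelled SKBR3 than in A375 batch 2 (-0.95, SE 0.07, adjusted p = 1.10e-06) and 2.58-fold higher than in SK-Hep1. Both other IGF2BP genes had the opposite order: IGF2BP3 was 2.99-fold and IGF2BP2 2.14-fold higher in A375 batch 2 than in the libraries labelled SKBR3. Between A375 batch 2 and SK-Hep1 the IGF2BP2 levels were 70.3 ± 3.84 and 61.3 ± 0.0907 TPM, a difference (0.19, SE 0.05, adjusted p = 0.00532) that was 0.01 when libraries were scaled to a common median (adjusted p = 0.9) and 0.02 with quantile normalization (adjusted p = 0.652).

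**Figure D2:**
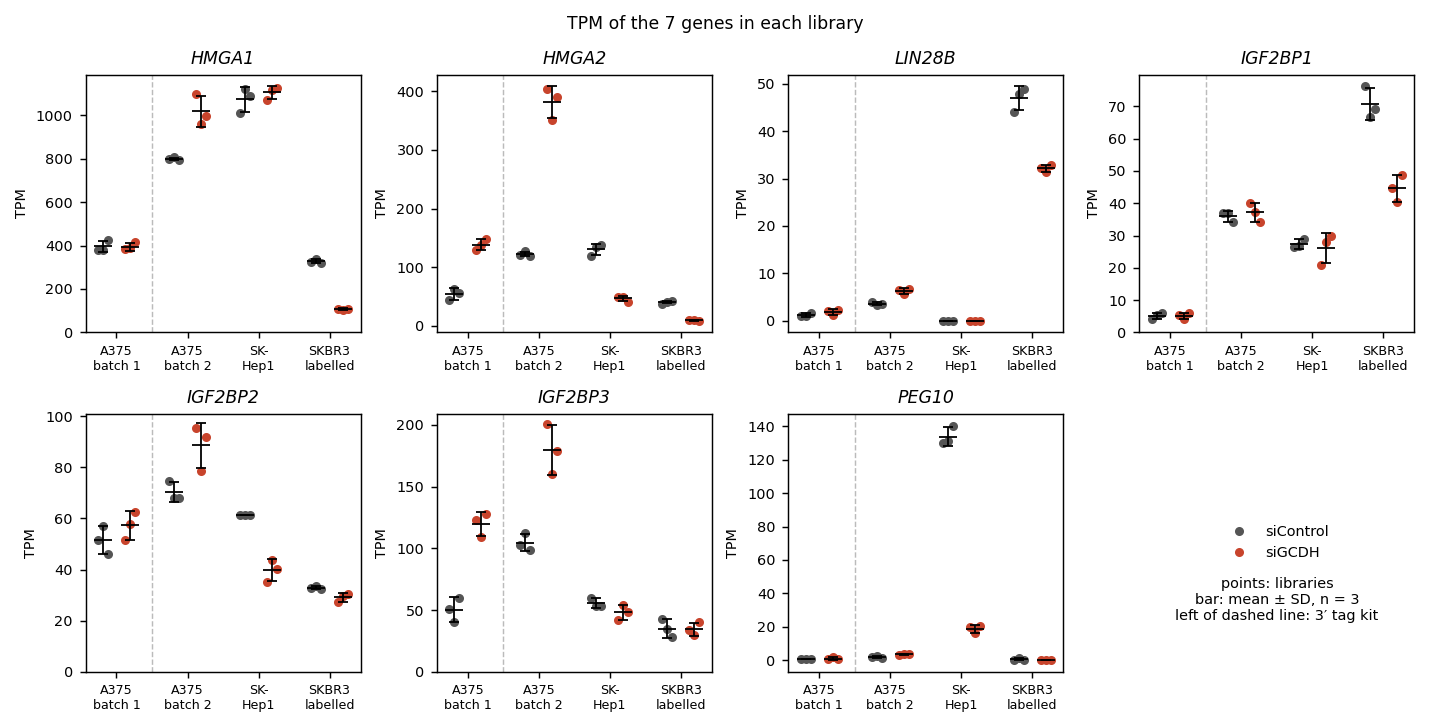
TPM of each of the 7 genes in all 24 libraries, with siControl in grey and siGCDH in red, by line and batch. Points are libraries and bars are mean ± SD over 3 libraries; every vertical axis is linear and includes 0. HMGA2 is higher with siGCDH in both A375 batches and lower in SK-Hep1 and in the libraries labelled SKBR3, and PEG10 is abundant in SK-Hep1 alone among the 4.

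HMGA2 (chr12:65824131-65966295, plus strand), the chromatin protein gene whose 3' UTR is the best known let-7 target, moved in opposite directions between the lines. With siControl in A375 batch 2 it was 121, 127 and 119.9 TPM, and 404, 352 and 389 with siGCDH in replicates 1, 2 and 3. With the other kit, in A375 batch 1, it was 43.5, 62.3 and 56.8 TPM with siControl and 129, 138 and 148 with siGCDH. The siGCDH libraries were above every siControl library in both batches, by 3.11-fold and 2.55-fold in the means. In SK-Hep1 it was 119.8, 135 and 138 TPM with siControl and 49.7, 49.5 and 41.4 with siGCDH. In the libraries labelled SKBR3 it was 38.01, 41.0 and 41.8 TPM with siControl and 10.01, 9.64 and 8.90 with siGCDH. Here the siGCDH libraries were below every siControl library, by 2.79-fold and 4.23-fold. On the log2(TPM + 1) scale the differences were 1.63 and 1.35 in A375 batches 2 and 1, -1.46 in SK-Hep1 and -1.97 in the libraries labelled SKBR3. Ranked by size they were the 86th largest rise of 15185 genes in A375 batch 2, the 229th largest fall of 14557 in SK-Hep1 and the 40th largest fall of 16494 in the libraries labelled SKBR3.

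A375 and SK-Hep1 had started from similar HMGA2 levels, 123 ± 3.94 and 131 ± 9.57 TPM, and after knockdown stood at 382 ± 26.8 and 46.9 ± 4.70 TPM. RPSAP52, a transcribed pseudogene that lies antisense across HMGA2, went from 6.15 to 21.2 TPM in A375 batch 2 and from 4.16 to 1.69 TPM in SK-Hep1, and the mean of HMGA2-AS1 went from 5.38 to 1.54 TPM in SK-Hep1. Because the strand setting of the counting is not given in the sources used here, reads of HMGA2 and its antisense partners cannot be told apart, so these are values without a test. Of the 7 listed neighbours that do not overlap HMGA2, LLPH rose in A375 batch 2 (89.5 to 111 TPM, 0.31, adjusted p = 0.0176) and fell in SK-Hep1 (77.2 to 45.1 TPM, -0.76, adjusted p = 3.61e-05) and in the libraries labelled SKBR3 (47.6 to 36.0 TPM, -0.39, adjusted p = 0.00112), and was at -0.19 in A375 batch 1 (adjusted p = 0.465). Other neighbours moved opposite to HMGA2. In the libraries labelled SKBR3, MSRB3 was 9.55, 11.29 and 10.68 TPM with siControl and 27.84, 17.83 and 18.01 with siGCDH. In SK-Hep1, LEMD3 was 9.59, 10.87 and 9.0 TPM with siControl and 13.86, 14.09 and 14.37 with siGCDH. Counted over the listed neighbours that do not overlap HMGA2, 0 of 5 rose and 0 fell in A375 batch 1, where 1.18% of all genes rose and 6.73% fell. In batch 2, 1 of 6 rose and 0 fell, against 17.9% and 15.7% of all genes. In SK-Hep1, 1 of 6 rose and 1 fell, against 37.3% and 18.2%, and in the libraries labelled SKBR3 3 of 6 rose and 1 fell, against 47.3% and 14.7%.

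HMGA1 (chr6:34236873-34246231, plus strand), the relative of HMGA2 that many tumours express, changed in the libraries labelled SKBR3 and in A375 batch 2. In the libraries labelled SKBR3 it was 325, 338 and 319 TPM with siControl and 109, 101 and 108 with siGCDH, a fall to 32.5% (log2 fold change -1.61, SE 0.04, adjusted p = 7.96e-07). All 3 siGCDH libraries lay far below the siControl range. The A375 batch 2 values were 799, 806 and 795 TPM with siControl and 1097, 959.5 and 999 with siGCDH, a rise of 1.27-fold (0.35, SE 0.05, adjusted p = 0.00156) without overlap. In SK-Hep1 it was 1011, 1121 and 1089.8 TPM with siControl and 1069.7, 1117 and 1128 with siGCDH, and the groups overlapped (0.04, 95% confidence interval -0.06 to 0.15, adjusted p = 0.457). The values in A375 batch 1 were 380.3, 381 and 427 TPM with siControl and 382, 387 and 417 with siGCDH. That difference was 0.00 (adjusted p = 0.99), but 0.35 with quantile normalization (adjusted p = 0.0442) and 0.30 when the 5 chromosome 21 rows were left out and TPM rescaled (adjusted p = 0.1). HMGA1 has processed pseudogenes that can share its reads; the most abundant, HMGA1P4, reached a group mean of 4.60 TPM.

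LIN28B (chr6:104936616-105083332, plus strand), which blocks let-7 maturation, was abundant in the libraries labelled SKBR3 alone. There it was 44.1, 47.95 and 48.8 TPM with siControl and 32.3, 31.4 and 32.8 with siGCDH, a fall to 68.5% without overlap (-0.53, SE 0.06, adjusted p = 2.49e-04). It was low in A375 batch 2, at 3.94, 3.38 and 3.44 TPM with siControl, and rose to 6.47, 5.55 and 6.76 with siGCDH (0.66, SE 0.13, adjusted p = 0.00719). Batch 1 of A375 gave 0.99, 1.04 and 1.58 TPM with siControl and 2.07, 1.22 and 2.32 with siGCDH, near the filter of 1 TPM and with overlap (0.37, SE 0.37, adjusted p = 0.587). In SK-Hep1 it was listed at 0 in all 6 libraries and was not tested. LIN28A, its paralogue, did not exceed 0.07 TPM in any of the 24 libraries. TRIM71, a stem cell protein gene and let-7 target that was listed at 0.01 TPM or less in every A375 and SK-Hep1 library, was 2.05 ± 0.0929 TPM with siControl and 1.39 ± 0.153 with siGCDH in the libraries labelled SKBR3 (-0.35, SE 0.17, adjusted p = 0.101).

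The 3 IGF2BP genes, which encode closely related RNA-binding proteins, changed in different lines. IGF2BP3 (chr7:23310209-23470467, minus strand) rose in A375. In batch 2 it was 103, 112 and 98.5 TPM with siControl and 200.4, 160.2 and 179 with siGCDH, a rise of 1.72-fold (0.77, SE 0.09, adjusted p = 5.96e-04). In batch 1 it was 50.5, 40.2 and 60.1 TPM with siControl and 123, 109 and 128 with siGCDH, a rise of 2.39-fold (1.25, SE 0.17, adjusted p = 0.00814). The groups did not overlap in either batch, and without the mean-variance trend in the model the adjusted p in batch 1 was 0.0578. In SK-Hep1 it was 59.95, 53.2 and 53.5 TPM with siControl and 42.0, 54.1 and 48.5 with siGCDH, and the groups overlapped (-0.21, SE 0.10, adjusted p = 0.107). That difference passed with a common median (-0.32, adjusted p = 0.0189), with quantile normalization (-0.31, adjusted p = 0.0247) and without siGCDH replicate 2 (-0.29, adjusted p = 0.0378). In the libraries labelled SKBR3 it was 42.6, 34.6 and 27.8 TPM with siControl and 33.6, 29.6 and 40.05 with siGCDH (-0.01, 95% confidence interval -0.40 to 0.37, adjusted p = 0.95). The protein-coding gene MALSU1, with group means up to 96.0 TPM, overlaps IGF2BP3 on the opposite strand, which adds the same uncertainty of strand.

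IGF2BP2 (chr3:185643739-185825056, minus strand) was the member whose fall passed in SK-Hep1. There it was 61.3, 61.2 and 61.4 TPM with siControl and 35.1, 43.9 and 40.3 with siGCDH, a fall to 64.9% (-0.62, SE 0.08, adjusted p = 4.90e-04). In A375 batch 2 it was 74.7, 67.95 and 68.2 TPM with siControl and 95.5, 78.6 and 91.8 with siGCDH, a rise of 1.26-fold without overlap (0.33, SE 0.08, adjusted p = 0.0186). That call was lost without siControl replicate 2 (adjusted p = 0.0618), siControl replicate 3 (0.0578), siGCDH replicate 1 (0.0571) or siGCDH replicate 3 (0.0619). In the libraries labelled SKBR3 it was 32.8, 33.6 and 32.25 TPM with siControl and 27.15, 29.6 and 30.55 with siGCDH, lower in every siGCDH library but just short of the threshold (-0.17, SE 0.06, adjusted p = 0.0501). A375 batch 1 gave 51.5, 56.9 and 45.9 TPM with siControl and 51.4, 57.9 and 62.7 with siGCDH, with overlap (0.15, SE 0.15, adjusted p = 0.571).

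IGF2BP1 (chr17:48997412-49055650, plus strand) fell in the libraries labelled SKBR3, where it is most abundant. It was 76.3, 66.85 and 69.2 TPM there with siControl and 44.9, 40.25 and 48.8 with siGCDH, a fall to 63.0% without overlap (-0.66, SE 0.08, adjusted p = 4.23e-04). In A375 batch 2 it was 36.9, 37.1 and 34.1 TPM with siControl and 40.2, 37.2 and 34.1 with siGCDH, and the 95% confidence interval of the log2 fold change ran from -0.14 to 0.22 (0.04, adjusted p = 0.728). In SK-Hep1 it was 26.3, 26.8 and 29.03 TPM with siControl and 20.85, 27.9 and 29.7 with siGCDH (-0.08, interval -0.38 to 0.22, adjusted p = 0.623). It ranged in A375 batch 1 from 4.06 to 6.03 TPM with siControl and 4.17 to 5.88 with siGCDH (-0.01, interval -0.61 to 0.59, adjusted p = 0.989). The groups overlapped in these 3 comparisons. The antisense RNA AC091133.2, with group means up to 16.8 TPM, overlaps IGF2BP1, again without a known strand setting.

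PEG10 (chr7:94656325-94669695, plus strand), which holds no seed match, was abundant in SK-Hep1 alone and was lower there with siGCDH. It was 129.8, 131 and 141 TPM with siControl and 19.9, 16.2 and 20.5 with siGCDH, 14.1% of the siControl mean and -2.77 on the log2(TPM + 1) scale. This was the 14th largest fall of 14557 genes in SK-Hep1. In A375 batch 2 it was 1.61, 2.40 and 1.34 TPM with siControl and 3.16, 3.59 and 3.83 with siGCDH, higher in every siGCDH library at a low level (0.72, or 0.33 with a pseudocount of 5 and 0.98 with 0.1). The values in batch 1 were 0.55, 0.53 and 0.66 TPM with siControl and 0.58, 1.76 and 0.43 with siGCDH, and in the libraries labelled SKBR3 0.33, 1.07 and 0.22 with siControl and 0.13, 0.28 and 0.15 with siGCDH, under the filter in both. SGCE, the imprinted neighbour on the opposite strand that overlaps PEG10, went the other way in SK-Hep1: it was 69.4, 70.8 and 72.4 TPM with siControl and 79.7, 91.2 and 88.8 with siGCDH (0.28, SE 0.06, adjusted p = 0.00621), though reads of the overlap cannot be assigned without the strand setting. The other listed neighbours were divided there. TFPI2, a protease inhibitor gene, fell from 2.64 to 0.737 TPM in SK-Hep1 (-1.10, SE 0.25, adjusted p = 0.00667) and rose from 36.0 to 46.6 in A375 batch 2 (0.37, SE 0.06, adjusted p = 0.00373). PON2 rose in SK-Hep1 (88.7 to 112 TPM, 0.34, adjusted p = 6.18e-04), and PPP1R9A and CASD1 did not pass (-0.21 and -0.25, adjusted p = 0.208 and 0.167). In bulk libraries, fewer cells that express a gene and less of its RNA in each cell cannot be told apart.

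**Figure D3:**
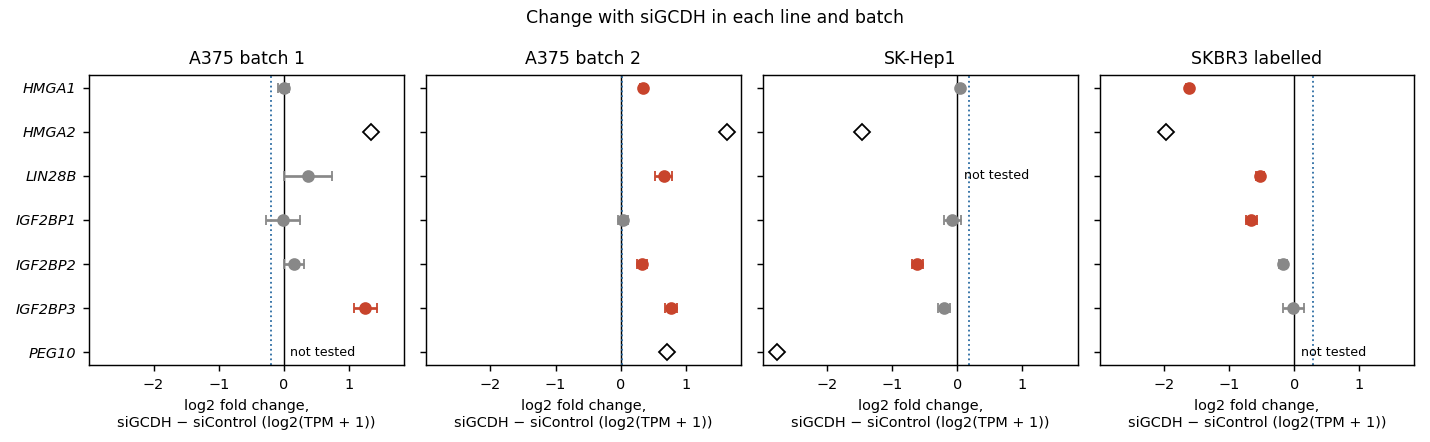
Log2 fold change of each gene, siGCDH minus siControl on the log2(TPM + 1) scale, in the 4 comparisons. Filled points with SE bars were tested (red, adjusted p under 0.05; grey, not), open diamonds are HMGA2 and PEG10, which were picked on these values and not tested, and the dotted blue line is the median of all genes. HMGA2 is at 1.63 in A375 batch 2 and at -1.46 and -1.97 in SK-Hep1 and the libraries labelled SKBR3.

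Over the 5 genes that were not picked on the change, 4 of 5 rose in A375 batch 2 (HMGA1, LIN28B, IGF2BP2 and IGF2BP3), where 17.9% of all 15185 genes tested rose and 15.7% fell. IGF2BP3 was, in A375 batch 1, the 1 of 5 that rose, against 1.18% of all genes that rose and 6.73% that fell. In SK-Hep1, IGF2BP2 was the 1 of 4 tested that fell, close to the 18.2% of all genes that fell while 37.3% rose. In the libraries labelled SKBR3, 3 of 5 fell (HMGA1, LIN28B and IGF2BP1), against 14.7% of all genes that fell and 47.3% that rose. HMGA2 and PEG10 are not in these counts, and LIN28B was left out in SK-Hep1, where it was listed at 0.

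The zero point of these comparisons was not the same in every line. The median log2 fold change of all genes was -0.20 and 0.02 in A375 batches 1 and 2, 0.18 in SK-Hep1 and 0.29 in the libraries labelled SKBR3. Relative to that median, HMGA1 was at 0.20 and 0.32 in the A375 batches, -0.14 in SK-Hep1 and -1.91 in the libraries labelled SKBR3, and IGF2BP3 was at 1.46, 0.75, -0.39 and -0.31. With a common median the genes that passed split into 207 up and 294 down in batch 1 (152 and 866 without it), 4200 and 3341 in SK-Hep1 (5432 and 2644), and 5043 and 4171 in the libraries labelled SKBR3 (7805 and 2431). No member that passed changed direction under that scaling. Mitochondrially encoded genes took 2.06% of TPM with siControl and 4.88% with siGCDH in the libraries labelled SKBR3, and 6.02% and 6.00% in SK-Hep1; the part of this in the results was not tested.

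Whether the response to siGCDH differed between lines was tested as an interaction within the full-length kit. HMGA1 (0.30, SE 0.07, adjusted p = 0.0042), IGF2BP2 (0.94, SE 0.12, adjusted p = 8.52e-05) and IGF2BP3 (0.98, SE 0.14, adjusted p = 1.96e-04) responded more positively in A375 batch 2 than in SK-Hep1, and IGF2BP1 did not differ beyond its error (0.12, 95% confidence interval -0.23 to 0.47, adjusted p = 0.576). These are 3 of 4 genes. Of all genes 46.2% passed in either direction, 2698 more positive in A375 batch 2 and 4485 more negative. LIN28B was not counted because it was listed at 0 in SK-Hep1. Against the libraries labelled SKBR3, all 5 of 5 responded more positively in A375 batch 2. The differences were 1.96 for HMGA1 (adjusted p = 5.53e-09), 1.19 for LIN28B (1.06e-05), 0.79 for IGF2BP3 (0.00836), 0.70 for IGF2BP1 (5.21e-04) and 0.50 for IGF2BP2 (0.00228). Here 51.4% of all genes passed in either direction, 2447 more positive in A375 batch 2 and 6196 more negative. SK-Hep1 and the libraries labelled SKBR3 also differed from each other in 3 of 4 genes, against 39.5% of all genes. The response of HMGA1 was more negative in the libraries labelled SKBR3 (1.65, SE 0.06, adjusted p = 7.86e-08), IGF2BP1 likewise (0.58, SE 0.17, adjusted p = 0.0173), and IGF2BP2 fell more in SK-Hep1 (-0.45, SE 0.10, adjusted p = 0.00615). The same A375 libraries enter 2 of these differences, and the same holds for SK-Hep1 and for the libraries labelled SKBR3, so the 3 tests are not independent. For HMGA2 the untested differences were 3.09 between A375 batch 2 and SK-Hep1 and 3.60 between A375 batch 2 and the libraries labelled SKBR3, and for PEG10 the first of these was 3.49.

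The genes whose values ran most like HMGA2 were found over the 18 full-length libraries, after subtracting the siControl mean of each line, among the 11440 genes that averaged 5 TPM or more. They were FAM20B, a xylose kinase of proteoglycan synthesis (Pearson r = 0.992), ZFAS1, a small nucleolar RNA host gene (0.989), ADAM19, a membrane metalloprotease (0.986), CCNB1IP1 (0.986) and EFNB2, an ephrin ligand (0.986). FAM20B went from 20.6 to 38.7 TPM in A375 batch 2, from 13.7 to 5.96 in SK-Hep1 and from 20.5 to 7.55 in the libraries labelled SKBR3. For PEG10 they were RTN3 (0.982), an endoplasmic reticulum membrane protein gene, SNAPC2 (0.980), ADGRG1 (0.978), an adhesion receptor gene, ZFP36L2 (0.978), which promotes decay of AU-rich messenger RNAs, and HLA-DRA (0.977). HLA-DRA, a chain of the class II antigen-presenting molecule, went from 308 to 95.1 TPM in SK-Hep1 and from 495 to 596 in A375 batch 2. In the libraries labelled SKBR3 it was 0.383 TPM with siControl and 0.267 with siGCDH. ADGRG1 was 0.1 and 0.127 TPM there and PEG10 itself 0.54 and 0.187. For these genes the libraries labelled SKBR3 thus add little to the likeness. Because the siControl mean of each line was subtracted, these correlations describe only the siGCDH shifts of 3 lines. PEG10 moved most in SK-Hep1, to -2.69, -2.97 and -2.65 in the siGCDH libraries. The correlations are also the highest of 11440, so no test was made.

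**Figure D4:**
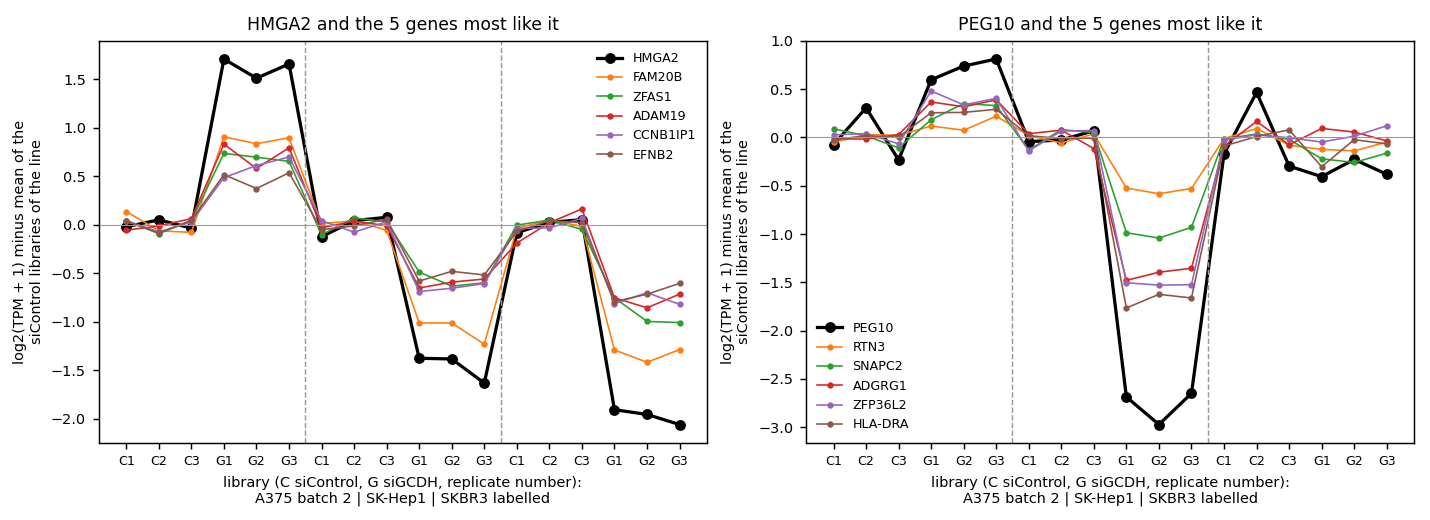
Log2(TPM + 1) minus the siControl mean of the same line in the 18 full-length libraries, for HMGA2 (left) and PEG10 (right) in black and the 5 genes most like each in colour. C is siControl, G is siGCDH, and dashed lines separate A375 batch 2, SK-Hep1 and the libraries labelled SKBR3. The genes like HMGA2 sit above 0 with siGCDH in A375 and below 0 in the other 2 lines, over a smaller range than HMGA2 itself.

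The genes that make and use let-7 were counted next, beside the shares of all genes. Of the listed genes for let-7 processing and action (19 without LIN28B), 1 of 16 rose and 0 fell in A375 batch 1, 2 of 17 rose and 2 fell in batch 2, 5 of 15 rose and 3 fell in SK-Hep1, and 9 of 17 rose and 2 fell in the libraries labelled SKBR3. Among all genes 1.18%, 17.9%, 37.3% and 47.3% rose and 6.73%, 15.7%, 18.2% and 14.7% fell in the same order, so the counts in SK-Hep1 and in the libraries labelled SKBR3 lie close to the background. The medians of the list were -0.03, 0.11, 0.19 and 0.27, beside -0.20, 0.02, 0.18 and 0.29 for all genes. TNRC6A, a scaffold that Argonaute proteins use for silencing, rose in all 4 comparisons, from 108 to 195 TPM and from 31.6 to 57.6 in A375 batches 1 and 2, from 23.0 to 42.1 in SK-Hep1 and from 24.2 to 57.1 in the libraries labelled SKBR3 (adjusted p = 0.0387, 0.00345, 0.00116 and 9.74e-05). XPO5, which exports microRNA precursors from the nucleus, fell from 55.6 to 38.9 TPM in A375 batch 2 (-0.49, adjusted p = 0.0249), from 68.3 to 40.8 in SK-Hep1 (-0.73, adjusted p = 0.00354) and from 98.1 to 50.2 in the libraries labelled SKBR3 (-0.95, adjusted p = 2.00e-04), and was 13.4 and 7.86 TPM with siControl and siGCDH in batch 1 (-0.70, adjusted p = 0.0789). The direction of XPO5 was the same in all 4 comparisons, though the difference in batch 1 did not pass. Whether it bears on HMGA2 was not tested. DIS3L2, the nuclease that degrades let-7 precursors marked through LIN28, fell from 17.8 to 10.4 TPM in A375 batch 2 (-0.72, adjusted p = 0.00137) and rose from 14.7 to 22.7 in the libraries labelled SKBR3 (0.60, adjusted p = 5.53e-04). It did not pass in SK-Hep1 (-0.16, adjusted p = 0.302) or in batch 1 (0.65, adjusted p = 0.28).

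Other let-7 targets rose and fell in each comparison. Of 25 listed target genes, 1 of 20 rose and 2 fell in A375 batch 1, 11 of 22 rose and 4 fell in batch 2, 10 of 22 rose and 5 fell in SK-Hep1, and 8 of 23 rose and 8 fell in the libraries labelled SKBR3, with medians of -0.07, 0.19, 0.20 and 0.04. The shares of all genes that rose were 1.18%, 17.9%, 37.3% and 47.3%, those that fell 6.73%, 15.7%, 18.2% and 14.7%, and the medians of all genes -0.20, 0.02, 0.18 and 0.29. CCND1, the cyclin of the early cell cycle, rose in all 4 comparisons, from 73.6 to 138 TPM in A375 batch 1 (0.90, adjusted p = 0.0115), from 274 to 372 in batch 2 (0.44, adjusted p = 4.17e-04), from 118 to 356 in SK-Hep1 (1.58, adjusted p = 7.35e-07) and from 22.6 to 31.3 in the libraries labelled SKBR3 (0.44, adjusted p = 0.00693). MYC, which is also known as an IGF2BP-bound transcript, fell from 168 to 36.8 TPM in the libraries labelled SKBR3 (-2.16, adjusted p = 2.20e-07) and from 103 to 39.7 in SK-Hep1 (-1.35, adjusted p = 2.06e-06) and rose from 10.4 to 14.0 in A375 batch 2 (0.39, adjusted p = 0.0158). IL6, a cytokine, fell from 34.8 to 5.32 TPM in SK-Hep1 (-2.50, adjusted p = 9.45e-07). All other genes with a 3' UTR were also counted by their number of seed matches. In A375 batch 2, of 11091 genes with no match 19.2% rose and 18.2% fell, of 1039 with 1 match 18.8% and 19.9%, and of 121 with at least 2 matches 16.5% and 15.7%. In SK-Hep1 38.7%, 40.6% and 45.9% of these classes rose and 20.9%, 18.5% and 17.2% fell. The shares were 46.0%, 43.8% and 42.6% up and 18.1%, 18.4% and 14.0% down in the libraries labelled SKBR3, and in A375 batch 1 0.935%, 1.13% and 0.98% rose and 7.61%, 6.92% and 1.96% fell. Genes with more matches also had longer 3' UTRs, with median lengths of 984, 2589 and 5188 bases in the batch 2 fit, and these shares are given without a test.

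Transcripts known to be bound by the IGF2BP proteins were counted as well. Of 13, 1 of 10 rose and 0 fell in A375 batch 1, 5 of 10 rose and 2 fell in batch 2, 3 of 10 rose and 4 fell in SK-Hep1, and 3 of 12 rose and 5 fell in the libraries labelled SKBR3, with medians of -0.34, 0.12, 0.09 and 0.00. Of all genes 1.18%, 17.9%, 37.3% and 47.3% rose and 6.73%, 15.7%, 18.2% and 14.7% fell, with medians of -0.20, 0.02, 0.18 and 0.29. CD44, a hyaluronan receptor, rose from 438 to 866 TPM in A375 batch 2 (0.98, adjusted p = 1.81e-05) and from 141 to 205 in batch 1 (0.53, adjusted p = 0.0389), and by 0.09 in SK-Hep1, from 1225 to 1305 TPM (adjusted p = 0.0428). SRF, a transcription factor for actin genes, fell from 18.3 to 8.37 TPM in SK-Hep1 (-1.04, adjusted p = 3.20e-05) and from 28.1 to 18.6 in the libraries labelled SKBR3 (-0.57, adjusted p = 2.99e-04), and rose from 20.2 to 24.1 in A375 batch 2 (0.24, adjusted p = 0.0272). IGF2, the growth factor for which the family is named, did not exceed 0.03 TPM in A375, and was 4.72 ± 0.644 TPM with siControl and 5.82 ± 0.384 with siGCDH in SK-Hep1 (0.26, adjusted p = 0.124) and 1.12 ± 0.192 and 2.79 ± 0.236 in the libraries labelled SKBR3 (0.84, adjusted p = 0.00378). H19, the imprinted RNA beside IGF2, rose from 0.763 to 2.51 TPM in the libraries labelled SKBR3 (0.99, adjusted p = 0.00235).

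**Figure D5:**
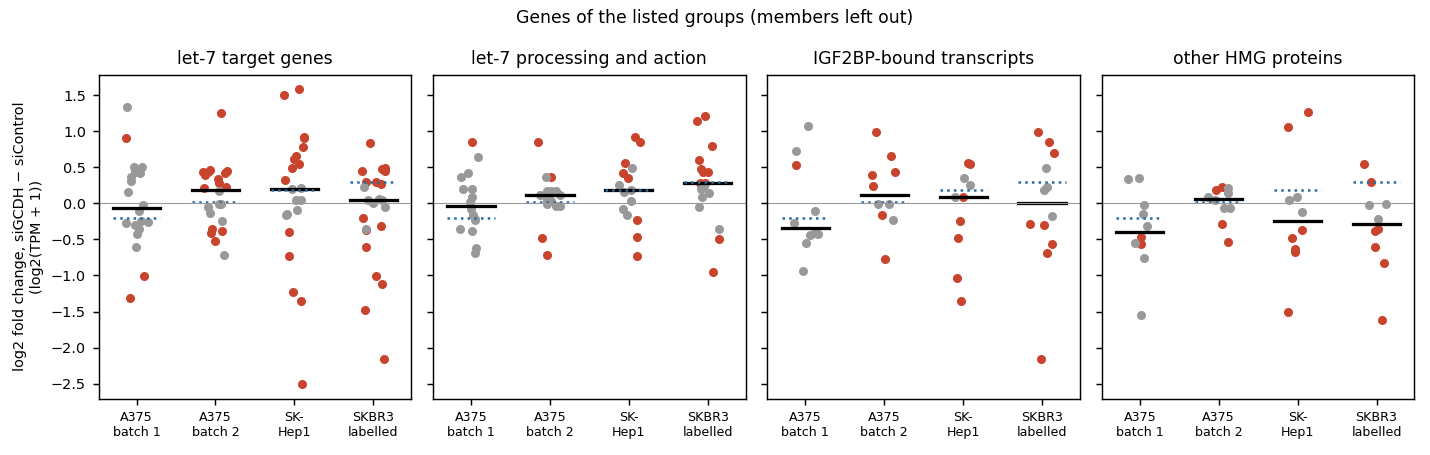
Log2 fold changes of the genes of 4 listed groups in the 4 comparisons, with the 7 described genes left out. Each point is a gene (red, adjusted p under 0.05; grey, not), black bars are the median of the group and dotted blue bars the median of all genes; a small horizontal scatter separates the points. Within each group some genes rise and others fall, and MYC in the libraries labelled SKBR3 is at -2.16.

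Many other oncofetal genes were too low to test. Of 15, 5 to 8 passed the filter: 0 of 5 passed the test in A375 batch 1, 1 of 6 rose and 0 fell in batch 2, 3 of 7 rose and 2 fell in SK-Hep1, and 3 of 8 rose and 2 fell in the libraries labelled SKBR3. The shares of all genes were, in that order, 1.18%, 17.9%, 37.3% and 47.3% up and 6.73%, 15.7%, 18.2% and 14.7% down. GPC3 was 51.48, 52.15 and 51.21 TPM with siControl and 71.77, 71.65 and 67.9 with siGCDH in the libraries labelled SKBR3, opposite to HMGA2. In SK-Hep1, ROR1 was 2.55, 3.26 and 3.58 TPM with siControl and 5.23, 5.46 and 6.49 with siGCDH, also opposite to HMGA2. PLAGL2, a zinc finger gene of the oncofetal PLAG family, had the order of HMGA2. It rose from 9.23 to 14.1 TPM in A375 batch 2 (0.56, SE 0.09, adjusted p = 0.00282) and fell from 6.92 to 4.29 in SK-Hep1 (-0.58, SE 0.12, adjusted p = 0.00335) and from 18.7 to 7.85 in the libraries labelled SKBR3 (-1.15, SE 0.08, adjusted p = 2.08e-05), and was at 0.41 in batch 1 (adjusted p = 0.554).

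The neighbours and retrotransposon-derived relatives of PEG10 include abundant genes, such as RTL8A and LDOC1, which also descend from a retrotransposon. Among 21, without SGCE, 0 of 11 rose and 2 fell in A375 batch 1 (1.18% and 6.73% of all genes), and 5 of 12 rose and 1 fell in batch 2 (17.9% and 15.7%). In SK-Hep1 4 of 13 rose and 5 fell (37.3% and 18.2%), and in the libraries labelled SKBR3 6 of 14 rose and 3 fell (47.3% and 14.7%). RTL8A rose from 105 to 161 TPM in SK-Hep1 (0.61, adjusted p = 1.48e-04), from 53.1 to 72.5 in A375 batch 2 (0.45, adjusted p = 0.00716) and from 119.0 to 182 in the libraries labelled SKBR3 (0.61, adjusted p = 1.76e-04), and was at -0.32 in batch 1 (adjusted p = 0.237). LDOC1 fell from 73.2 to 50.9 TPM in SK-Hep1 (-0.52, adjusted p = 3.34e-04), from 42.4 to 29.1 in the libraries labelled SKBR3 (-0.53, adjusted p = 2.24e-04) and from 36.9 to 17.7 in batch 1 (-1.01, adjusted p = 0.0152), and was at 0.01 in A375 batch 2 (adjusted p = 0.953).

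The other high mobility group proteins also bind chromatin and were counted in the same way. Of 10, 0 rose and 2 fell in A375 batch 1, 2 rose and 2 fell in batch 2, 2 rose and 5 fell in SK-Hep1, and 2 rose and 5 fell in the libraries labelled SKBR3. In the same 4 comparisons 1.18%, 17.9%, 37.3% and 47.3% of all genes rose and 6.73%, 15.7%, 18.2% and 14.7% fell. HMGN1, a nucleosome-binding protein gene, fell from 443 to 157 TPM in SK-Hep1 (-1.50, adjusted p = 3.96e-06) and from 617 to 200.3 in the libraries labelled SKBR3 (-1.62, adjusted p = 1.01e-06). A small rise was seen in A375 batch 2, 292 to 333 TPM (0.19, adjusted p = 0.033). HMGB2 rose from 264 to 549 TPM in SK-Hep1 (1.05, adjusted p = 8.27e-07) and from 512 to 749 in the libraries labelled SKBR3 (0.55, adjusted p = 1.20e-05), opposite to HMGA2 in both, and was at 0.04 in A375 batch 2 (adjusted p = 0.38).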

How the data were processed

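The authors deposited TPM values of 60504 rows in 24 libraries. The tools were RSEM 1.3.1, STAR 2.7.0d and cutadapt 2.3 on hg38, per the submitters' processing notes. Which annotation was used, and whether counting used strand, is not given in the sources used here. RSEM shares reads between similar transcripts, so pseudogenes are uncertain. TPM keep no depth, so no counting intervals are given. Groups and replicate numbers came from the sample labels.

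The members and gene lists were chosen with earlier results of these data known. Genes that averaged 1 TPM or more were analysed as log2(TPM + 1) by limma 3.58.1 in R 4.3.3 (lmFit and eBayes with trend), separately in the 6 libraries of each line and batch. P-values were two-sided and adjusted by the Benjamini-Hochberg method over all genes of a fit, with a call under 0.05. Differences between lines were interactions on 12 libraries, and siControl levels were compared on 9; the design counted all 7 genes there, but HMGA2, PEG10 and, beside SK-Hep1, LIN28B were left out of the count, as were genes that overlap HMGA2 or PEG10 from the counts of their neighbours. Differences are on the log2(TPM + 1) scale, which understates changes of low genes. The fits were tested on simulated data.

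Besides the 7 members and GCDH, the genes named were, for each list and comparison, up to 2 called genes with the smallest adjusted p and at least 5 TPM in the higher group (the text uses a selection and follows such a gene in the other comparisons), the 5 genes most like HMGA2 and PEG10, and LIN28A, IGF2, H19, TRIM71, SGCE, PPP1R9A and CASD1 to state a level. The last 2, HMGA1P4, MALSU1, MSRB3, LEMD3, GPC3, ROR1 and some genes with at least 4 seed matches were added after their values were seen. Same-numbered replicates did not deviate together (every correlation was under 0.1), so the numbers were not treated as pairs. Alternatives were pseudocounts of 0.1 and 5, no filter or one at 5 TPM, quantile normalization, a common median, no trend, the replicate block, joint fits, rows left out and each library left out in turn. Sequences were read from RefSeq (GRCh38.p14) and GENCODE 29 tables with Python 3.11.15; proteins and promoters were not used here.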

Additional observations from a re-analysis of the deposited data

Results flagged for a closer look

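In these results the response to siGCDH differed between 2 lines; differences are on the log2(TPM + 1) scale, with the adjusted p of the interaction by limma. Between A375 batch 2 and SK-Hep1 the difference was 0.30 for HMGA1 (adjusted p = 0.0042), 0.94 for IGF2BP2 (8.52e-05) and 0.98 for IGF2BP3 (1.96e-04). It was 3.09 for HMGA2 and 3.49 for PEG10, where every siGCDH library was above every siControl library in A375 batch 2 and below in SK-Hep1; these differences were not tested, because both genes were picked for them. Between A375 batch 2 and the libraries labelled SKBR3 it was 1.96 for HMGA1 (5.53e-09), 1.19 for LIN28B (1.06e-05), 0.70 for IGF2BP1 (5.21e-04), 0.50 for IGF2BP2 (0.00228) and 0.79 for IGF2BP3 (0.00836), and 3.60 for HMGA2, not tested. Between SK-Hep1 and the libraries labelled SKBR3 it was 1.65 for HMGA1 (7.86e-08), 0.58 for IGF2BP1 (0.0173) and -0.45 for IGF2BP2 (0.00615). The share of all genes that passed in these differences, in either direction, was 46.2%, 51.4% and 39.5%.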

How the results depend on the processing

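The number of tested members that passed was the same under every alternative for the 3 differences between lines. In A375 batch 1 it was 1, but 2 with quantile normalization and 0 without the trend. In SK-Hep1 it was 1, but 2 with quantile normalization, 2 with a common median and 1 to 2 when a library was left out. Left-out libraries gave 3 to 4 in A375 batch 2 (4 with all) and 3 to 4 in the libraries labelled SKBR3 (3 with all). With a filter at 5 TPM the count was 3 in A375 batch 2, because LIN28B was removed by that filter. LIN28B passed the test there in all 15 alternatives that kept it. In the libraries labelled SKBR3 it was 4 with a pseudocount of 5, a filter at 5 TPM, quantile normalization or a common median. For the siControl levels it was 4 of 4, 5 of 5 and 4 of 4 under every alternative, except 3 of 4 between A375 batch 2 and SK-Hep1 with quantile normalization and with a common median. The labels share replicate numbers between groups, but no same-numbered pair correlated above 0.1; with the replicate block the counts were 1, 4, 1 and 3 in the 4 within-line comparisons, and 357 genes in place of 1018 passed in A375 batch 1. That count of all genes was 590 with no filter, 516 with quantile normalization, 501 with a common median, 85 without the trend, 488 without the chromosome 21 rows, 5558 in the joint fit and 311 to 592 when a library was left out (311 without siControl replicate 2), so calls of batch 1 depend most on the processing.

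Sign changes met only differences that did not pass. In A375 batch 1 HMGA1 became 0.35, 0.21 and 0.30 and IGF2BP1 0.19, 0.17 and 0.26 with quantile normalization, a common median and without the chromosome 21 rows, and with libraries left out HMGA1 ran from -0.041 to 0.052 and IGF2BP1 from -0.142 to 0.106. HMGA1 in SK-Hep1 became -0.077 with a common median. With libraries left out, HMGA1 in SK-Hep1 ran from -0.001 to 0.074, IGF2BP1 from -0.016 to 0.098 in A375 batch 2 and, in SK-Hep1, between -0.176 and 0.070, IGF2BP3 from -0.165 to 0.135 in the libraries labelled SKBR3, and the IGF2BP1 difference between A375 batch 2 and SK-Hep1 from -0.030 to 0.216. IGF2BP2 in the libraries labelled SKBR3 passed with a pseudocount of 5, a filter at 5 TPM, quantile normalization, a common median and without siGCDH replicate 3 (adjusted p from 0.00141 to 0.0489). The depth of the libraries is unknown, which leaves PEG10 and LIN28B near 1 TPM without an error of counting.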

Other observations

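Mesenchymal transition genes, a programme in which HMGA2 is often studied, were counted from a list of 12. Of 10 tested, 0 rose and 2 fell in A375 batch 1, in batch 2 1 rose and 3 fell, in SK-Hep1 5 rose and 2 fell, and in the libraries labelled SKBR3 2 rose and 3 fell, with medians of -0.26, -0.26, 0.13 and 0.10. All genes gave 1.18%, 17.9%, 37.3% and 47.3% up, 6.73%, 15.7%, 18.2% and 14.7% down, and medians of -0.20, 0.02, 0.18 and 0.29, so the SK-Hep1 counts lie near the background. FN1, the matrix protein fibronectin, fell from 376 to 106 TPM in SK-Hep1 (log2 fold change -1.82, adjusted p by limma 4.49e-07). SNAI2, a repressor of epithelial genes, fell from 57.0 to 30.5 TPM in the libraries labelled SKBR3 (-0.88, adjusted p = 2.91e-05) and rose from 34.0 to 39.2 in SK-Hep1 (0.20, adjusted p = 0.0361). TGFB1, a growth factor that induces the programme, fell from 62.8 to 40.0 TPM in A375 batch 2 (-0.65, adjusted p = 0.00138), and rose from 22.9 to 39.8 in the libraries labelled SKBR3 (0.80, adjusted p = 0.00519) and from 161 to 178 in SK-Hep1 (0.14, adjusted p = 0.0429).

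Genes other than HMGA2, LIN28B and IGF2BP1 that held at least 4 matches to the let-7 seed in the principal 3' UTR included HEMK1, HIC2, IGDCC3, LIMD2, NR6A1, SMC1A and ZBTB37, named here after their values were seen. HIC2, a transcriptional repressor gene, rose in A375 batch 2 (0.55, adjusted p = 0.0271) and fell in the libraries labelled SKBR3 (-1.16, adjusted p = 3.92e-05), as HMGA2 did in its untested values, and was at 0.22 in SK-Hep1 (adjusted p = 0.35). SMC1A, a cohesin subunit gene, fell in SK-Hep1 (-0.65, adjusted p = 1.69e-04) and in the libraries labelled SKBR3 (-0.31, adjusted p = 0.00103). ZBTB37 rose in SK-Hep1 (1.22, adjusted p = 7.07e-04) and in the libraries labelled SKBR3 (0.62, adjusted p = 0.0148), and LIMD2 rose in SK-Hep1 (0.64, adjusted p = 2.92e-04). HEMK1 passed in none of the 4 comparisons (adjusted p from 0.312 to 0.683). NR6A1 and IGDCC3 passed the filter in the libraries labelled SKBR3 and fell there (-1.005 and -1.10, adjusted p = 4.26e-04 and 2.66e-04).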
